A study of Homo sapiens with 20 samples.

Results

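The 10 genes described here encode transgelins (TAGLN, TAGLN2), smooth muscle actin (ACTA2), calponins (CNN1, CNN2, CNN3), a regulatory light chain of myosin II (MYL9), caldesmon (CALD1) and tropomyosins (TPM1, TPM2). Each symbol matched 1 of the 58735 gene identifiers in the mRNA count files, so all 10 were found. They were chosen by gene name with earlier results of the same comparison in view, in which TAGLN stood out as lower, so their differences between the groups are given as a description, with no p-value. AC16 cells exposed to e-cigarette aerosol at an air–liquid interface (5 libraries) were compared with AC16 cells exposed to filtered air in such a system (5 libraries). AC16 is an established line that was made by fusing human ventricular cells with a transformed fibroblast line, and it divides in culture. Both groups were grown in the same serum-containing medium. Libraries are numbered 1 to 5 within a group, and the labels do not say whether they come from separate cultures. What the aerosol held, its dose and how long exposure lasted were not stated in the sources used here.

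Smooth muscle cells and activated fibroblasts contract by sliding myosin II along actin filaments. Transgelins and calponins bind and bundle those filaments, tropomyosins lie along them, and caldesmon, like calponin, restrains the myosin motor until calcium signals release it. Many genes of this programme carry a CArG box, the binding sequence of serum response factor (SRF), and are switched on when actin polymerises and releases the SRF cofactors of the myocardin family. In heart tissue TAGLN, ACTA2 and CNN1 mark smooth muscle and myofibroblasts, whereas TAGLN2, CNN2, CNN3, MYL9, CALD1, TPM1 and TPM2 are made more widely.

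Gene counts summed to between 60482726 and 72099157 per aerosol library and to between 65902331 and 88806394 per filtered air library. On the first principal component of all genes tested, aerosol libraries 4 and 5 (at 82.2 and 206) lay away from the other 8 (-50.7 to 1.11). Mitochondrially encoded genes took 18.1% and 19.5% of counts in those 2, 12.4 to 14.5% in aerosol libraries 1 to 3 and 7.75 to 10.3% in the filtered air libraries, and MALAT1, a nuclear noncoding RNA, lay between 7486 and 44760 CPM in aerosol libraries and between 2797 and 3765 CPM in filtered air libraries. The part of both in the results was not tested. Of 15 cardiomyocyte markers, 8 had 0 counts in every library, among them MYH6, MYH7, TNNT2 and NKX2-5, and only TTN averaged above 1 CPM (the counts-per-million level) over the 10 libraries, so AC16 here lacked most genes that define heart muscle. A count of 0 allows up to 3 counts, which is 0.0326 to 0.0555 CPM in these libraries. The smooth muscle markers MYOCD, DES and ACTG2 also averaged under 1 CPM, and the 8 smooth muscle and pericyte markers summed to 104.6 to 211 CPM in aerosol and 139 to 205 CPM in filtered air libraries. CSPG4 made up most of those sums, with means of 143 and 171 CPM (aerosol and filtered air). Sums of the 12 fibroblast markers were 2821 to 3527 CPM in aerosol and 3055 to 3650 CPM in filtered air libraries. All 6 endothelial and all 6 epithelial markers averaged under 1 CPM, and CD68 made up most of the leukocyte list's 33.2 to 56.7 CPM in aerosol and 35.9 to 60.6 CPM in filtered air libraries. The 15 cardiomyocyte markers summed to 30.2 to 54.5 CPM in aerosol and 22.4 to 31.5 CPM in filtered air libraries, nearly all of it TTN, and these sums overlapped between the groups in every marker list.

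Among the 10 genes the transgelins and the myosin light chain were lower after the aerosol, the calponins CNN1 and CNN2 had lower means, and caldesmon and the tropomyosins did not move together. A gene is named called here where edgeR's quasi-likelihood test, adjusted over all 20166 genes tested, gave an adjusted p under 0.05. All 10 genes entered the test, 3 were called lower (TAGLN, TAGLN2 and MYL9), and none was called higher. DESeq2 called 3 of the 10 lower, against 3.36% of all genes it tested, and none higher, against 4.76%. At an unadjusted p under 0.05, 5 were lower, against 9.48% of all genes, and none was higher, against 8.78%. Over all genes tested 1.39% were called lower and 1.62% higher, so that 53.8% of all calls were higher, against 73.8% under upper-quartile scaling and 43.4% with library size alone. In 4 of the 10 every aerosol library lay under every filtered air library, which held for 3.93% of all genes tested, and in none did every aerosol library lie above, against 3.52% of all genes. Because the list was drawn up with this comparison known, nothing is read from those counts. The median log2 fold change (aerosol over filtered air) was -0.39 over the 10 genes and -0.0042 over all genes tested, and together the 10 took 0.113 to 0.136% of counts in aerosol libraries and 0.156 to 0.172% in filtered air libraries. Those shares are of all counts, including those of mitochondrially encoded genes and MALAT1, which were higher in aerosol libraries.

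TAGLN, also known as SM22-alpha, is an early marker of smooth muscle cells (GRCh38.p14, chromosome 11, 117199294 to 117207465). It stood at 25.2, 22.9, 18.5, 20.1 and 25.3 CPM in aerosol libraries 1 to 5, against 78.2, 68.9, 88.6, 57.7 and 66.5 CPM in filtered air libraries 1 to 5. CPM values rest on library sizes adjusted by the trimmed mean of M values (TMM). The groups lay far apart, since the highest aerosol value was 25.3 CPM and the lowest filtered air value 57.7 CPM. The mean was 22.4 ± 3.04 CPM after aerosol and 71.97 ± 11.8 CPM in filtered air (SD, n = 5 each), a log2 fold change of -1.68 ± 0.15 (standard error), which leaves 31.1% of the filtered air level. In RNA from whole cultures, fewer cells that express a gene and less of its RNA per cell cannot be told apart. Without aerosol libraries 4 and 5 the log2 fold change of TAGLN was -1.70 ± 0.16, and it lay between -1.76 and -1.60 when any single library was left out.

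TAGLN2, the transgelin of non-muscle cells (chromosome 1, 159918111 to 159925507), moved in the same direction by less. It was at 150, 90.5, 146, 103 and 66.02 CPM in aerosol libraries 1 to 5, against 226, 199.7, 212, 227 and 181 CPM in filtered air libraries. No aerosol library reached the lowest filtered air library, but the aerosol libraries spread more widely, with a coefficient of variation of 32.7% against 9.16% in filtered air. The means were 111 ± 36.3 CPM and 209 ± 19.1 CPM (aerosol and filtered air, SD, n = 5 each), and the log2 fold change was -0.91 ± 0.19. TAGLN2 was no longer called without aerosol library 4 or without any one of filtered air libraries 1 to 4, with log2 fold changes of -0.88 to -0.93. Without aerosol libraries 4 and 5 TAGLN2 was called, at a smaller log2 fold change of -0.703 ± 0.155. TAGLN counts per TAGLN2 count were 0.168, 0.253, 0.127, 0.195 and 0.384 in aerosol libraries 1 to 5 and lay between 0.255 and 0.419 in filtered air, so the ratio of the 2 transgelins overlapped between the groups through aerosol library 5.

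**Figure D1:**
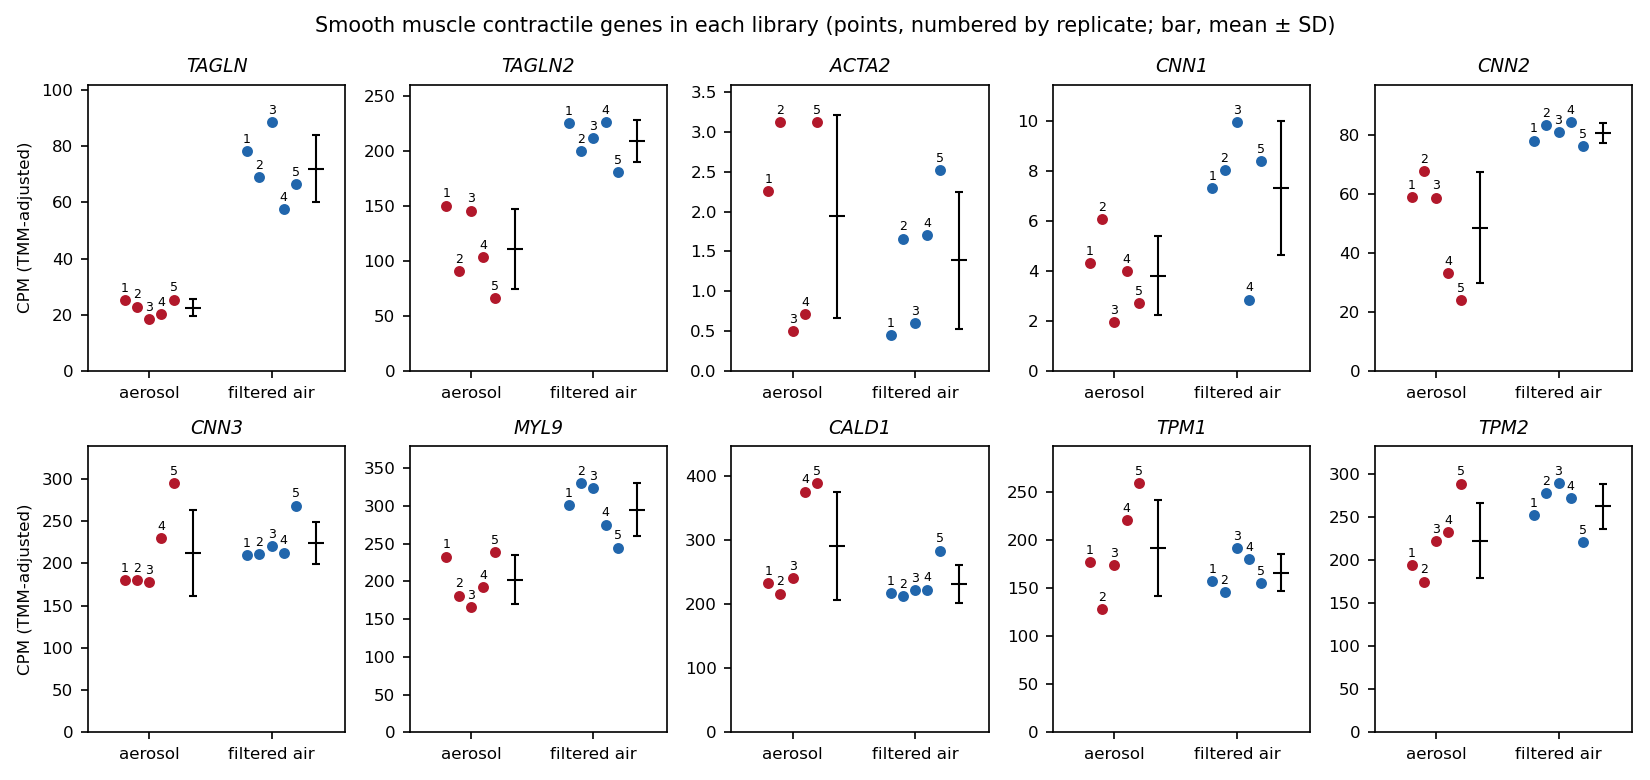
Level in CPM (y axis, from 0) of each of the 10 genes in the 5 aerosol libraries (red, left) and the 5 filtered air libraries (blue, right), with the mean ± SD beside each group. TAGLN, TAGLN2, CNN2 and MYL9 show no overlap, and aerosol libraries 4 and 5 are the highest aerosol libraries for CNN3, CALD1, TPM1 and TPM2 and the lowest for CNN2.

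The calponins differed among themselves. CNN1, the smooth muscle calponin (chromosome 19, 11538851 to 11550323), was low in both groups, with 4.31, 6.09, 1.95, 4.00 and 2.72 CPM after aerosol, against 7.30, 8.03, 9.97, 2.85 and 8.41 CPM in filtered air. Filtered air library 4 lay inside the aerosol range, and the other 4 filtered air libraries lay above all 5 aerosol libraries. The log2 fold change was -0.94 ± 0.37, and CNN1 was not called.

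CNN2, a calponin of many cell types (chromosome 19, 1026608 to 1039065), was at 59.0, 67.7, 58.8, 33.1 and 24.1 CPM in aerosol libraries 1 to 5, against 78.2, 83.3, 81.0, 84.5 and 76.3 CPM in filtered air. All aerosol values were lower, and libraries 4 and 5 were the lowest by a wide margin. The means were 48.5 ± 18.8 and 80.7 ± 3.43 CPM (aerosol and filtered air, SD, n = 5 each), with a log2 fold change of -0.73 ± 0.24 that was not called. Without aerosol libraries 4 and 5 it was -0.39 ± 0.10. CNN3, the acidic calponin (chromosome 1, 94896957 to 94927110), went the other way in those 2 libraries, with 180, 180, 178, 229 and 295 CPM after aerosol, against 209, 211, 220, 213 and 268 CPM in filtered air. Aerosol libraries 1 to 3 lay under every filtered air library and library 5 above all of them, so its log2 fold change of -0.08 ± 0.15 (0.01 under upper-quartile scaling) averages libraries on both sides, and without aerosol libraries 4 and 5 it was -0.33 ± 0.10. CNN2 counts per CNN3 count were 0.328, 0.376 and 0.331 in aerosol libraries 1 to 3 and 0.144 and 0.0818 in libraries 4 and 5, against 0.285 to 0.398 in filtered air.

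MYL9 encodes the light chain whose phosphorylation turns myosin II on in smooth muscle and non-muscle cells (chromosome 20, 36541519 to 36551447). It was at 233, 181, 166, 193 and 239 CPM in aerosol libraries 1 to 5, against 301, 330.0, 324, 275 and 245 CPM in filtered air. The groups did not overlap, though aerosol library 5 came close to filtered air library 5. The means were 202 ± 32.1 and 295 ± 35.4 CPM (aerosol and filtered air, SD, n = 5 each), with a log2 fold change of -0.54 ± 0.12. The call was lost without aerosol library 2, 3 or 4 or without any one of filtered air libraries 1 to 4, with log2 fold changes of -0.49 to -0.57, and under upper-quartile scaling (-0.46). Without aerosol libraries 4 and 5 MYL9 was called, at -0.62 ± 0.13.

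ACTA2, the smooth muscle actin that marks myofibroblasts (chromosome 10, 88935074 to 88991337), was barely counted in these cells. It had 2.26, 3.12, 0.499, 0.714 and 3.13 CPM in aerosol libraries 1 to 5, against 0.452, 1.66, 0.598, 1.71 and 2.52 CPM in filtered air. Both groups held low and higher libraries and overlapped almost fully. Those values rest on 30 to 217 counts per aerosol library and 39 to 232 per filtered air library, and the log2 fold change of 0.49 ± 0.63 was smaller than its error.

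CALD1, TPM1 and TPM2 had their highest aerosol values in libraries 4 and 5. CALD1 encodes caldesmon, which blocks myosin on thin filaments (chromosome 7, 134711499 to 134970729), and was at 232, 216, 241, 375 and 388 CPM after aerosol, against 217, 212, 222, 222 and 283 CPM in filtered air. Aerosol libraries 1 to 3 lay within the filtered air range and libraries 4 and 5 above it. With all libraries the log2 fold change was 0.33 ± 0.17, not called, and without libraries 4 and 5 it was -0.02 ± 0.11.

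TPM1 (chromosome 15, 63042747 to 63071915) encodes the alpha tropomyosin, of which splicing gives muscle and non-muscle forms that gene counts do not separate. It was at 177, 128, 174, 221 and 259 CPM in aerosol libraries 1 to 5, against 157, 146, 192, 180 and 156 CPM in filtered air. The groups overlapped, with a log2 fold change of 0.21 ± 0.16 over all libraries and of -0.06 ± 0.13 without aerosol libraries 4 and 5. TPM2, the beta tropomyosin (chromosome 9, 35681993 to 35690056), was at 194, 175, 222, 232 and 288 CPM after aerosol, against 252, 277, 289, 272 and 221 CPM in filtered air. Aerosol libraries 1 and 2 lay under every filtered air library and the others within their range. Its log2 fold change was -0.24 ± 0.13, and -0.42 ± 0.11 without aerosol libraries 4 and 5, not called in either case.

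The 2 tropomyosins were also read against each other, which needs no scaling of libraries. TPM1 counts per TPM2 count were 0.911, 0.734, 0.785, 0.953 and 0.9003 in aerosol libraries 1 to 5, against 0.625, 0.527, 0.665, 0.663 and 0.705 in filtered air. Every aerosol library was above every filtered air library, with means of 0.857 ± 0.0925 and 0.637 ± 0.0677 (aerosol and filtered air, SD, n = 5 each). The pair was singled out after its values were seen, and it is 1 of 4 pairs of neighbours in these families that were compared. The other 3 ratios, TAGLN to TAGLN2, CNN1 to CNN2 and CNN2 to CNN3, overlapped between the groups. Neither gene was called, and the ratio does not tell which of the 2 sets it apart.

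**Figure D2:**
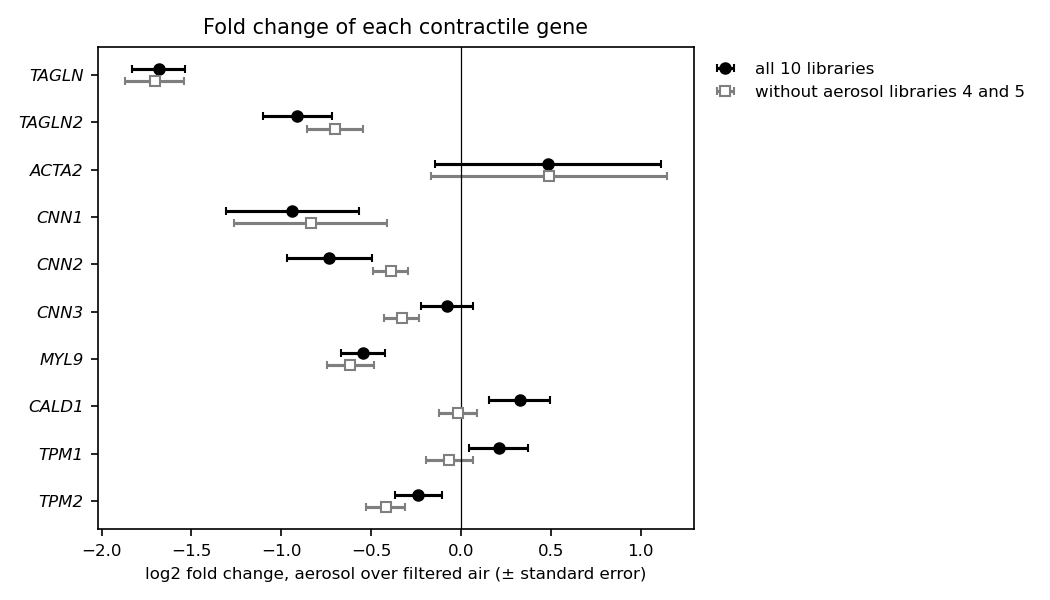
Log2 fold change of each gene (aerosol over filtered air, x axis, with its standard error) with all 10 libraries (filled circles) and without aerosol libraries 4 and 5 (open squares). TAGLN stays at -1.68 and -1.70, CNN2 shrinks from -0.73 to -0.39, and CALD1 (0.33 and -0.02) and TPM1 (0.21 and -0.06) change sign.

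Promoter sequence was compared because SRF is the common regulator of the smooth muscle programme. The table of RefSeq promoters used here (GRCh38.p14) held 16 windows for 8 of the 10 genes, and the 250 bases before each start were searched on both strands for the CArG box. A box has a pair of C, 6 core bases and a pair of G. With a core of A and T alone it was found in 1 of the 16 windows, that of CNN2, and in 1.16% of all 35116 windows. With up to 1 core base C or G it was found in 3 of the 16 windows, those of 3 genes (ACTA2, CALD1 and CNN2), and in 7.04% of all windows. The M-CAT word CATTCC, bound by TEAD factors, occurred in 4 of the 16 windows, those of 3 genes (ACTA2, CALD1 and CNN3), and in 11.9% of all windows. Shown are the ACTA2 and CNN2 windows that hold a box, and for comparison that of TAGLN2, which was called lower and holds none before this start; the boxes are in capitals and all else in lower case, 5′ to 3′ on the gene's strand.
ACTA2, chr10:88952774-88953023, minus strand: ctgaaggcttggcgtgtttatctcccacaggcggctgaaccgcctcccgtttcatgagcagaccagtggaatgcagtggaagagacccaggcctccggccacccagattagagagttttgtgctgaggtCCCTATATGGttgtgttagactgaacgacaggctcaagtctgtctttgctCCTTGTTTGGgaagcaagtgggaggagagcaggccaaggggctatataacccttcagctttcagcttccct
CNN2, chr19:1026358-1026607, plus strand: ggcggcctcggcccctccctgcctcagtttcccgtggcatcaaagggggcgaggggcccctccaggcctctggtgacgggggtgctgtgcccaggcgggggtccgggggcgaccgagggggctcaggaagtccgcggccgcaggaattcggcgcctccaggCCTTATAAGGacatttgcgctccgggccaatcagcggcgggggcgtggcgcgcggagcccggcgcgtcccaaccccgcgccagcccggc
TAGLN2, chr1:159925508-159925757, minus strand: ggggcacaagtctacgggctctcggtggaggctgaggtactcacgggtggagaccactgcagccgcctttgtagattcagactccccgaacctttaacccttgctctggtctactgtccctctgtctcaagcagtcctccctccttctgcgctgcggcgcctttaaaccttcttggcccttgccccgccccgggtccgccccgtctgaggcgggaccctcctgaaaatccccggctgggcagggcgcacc

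The first bases of the 2 ACTA2 boxes, each with 1 C or G in its core, lie at -121 and -71 from the start, and that of the CNN2 box at -89. CNN2, the gene with the unbroken box, had no overlap between the groups (24.1 to 67.7 against 76.3 to 84.5 CPM, aerosol and filtered air) but was not called, and ACTA2 and CALD1, whose boxes have a C or G in the core, overlapped. Among the genes without a box in their windows, TAGLN2 also had no overlap, and CNN1, CNN3, TPM1 and TPM2 overlapped. The part of the box in these differences was not tested. TAGLN and MYL9 had no entry in the table. A match describes these letters only, and a window without one says nothing of sequence beyond it.

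The 10 genes differ in genomic span, the length from first to last base with introns, and their fold changes were partly ordered by it, which was noticed after the values were seen. The 6 genes that span 7397 to 12458 bases (TAGLN, TAGLN2, CNN1, CNN2, MYL9 and TPM2) all had log2 fold changes below 0, and CALD1, which spans 259231 bases, ACTA2 (56264 bases) and TPM1 (29169 bases) had values above 0, those of CALD1 and TPM1 only with aerosol libraries 4 and 5 included. Across the 10 genes Spearman's rank correlation of fold change and span was 0.75, a description of genes that share the same 10 libraries. Among the 17073 genes tested with a span in RefSeq it was 0.07, and the medians rose with span only from 5057 bases upwards, while the shortest genes (56 to 1829 bases) had a median of 0.34. The median log2 fold change was -0.20 for genes of 5057 to 9655 bases, -0.17 from 9656 to 15584 bases, -0.09 from 23414 to 34071 bases and 0.12 from 145202 bases upwards. Set against the median of genes of like span, on the log2 scale, TAGLN lay at -1.48, CNN1 at -0.76, TAGLN2 at -0.71, CNN2 at -0.56 and MYL9 at -0.37. TPM2 (-0.037) and CNN3 (0.013) lay near it, and CALD1 (0.21), TPM1 (0.30) and ACTA2 (0.48) above it. The part of span in these differences was not tested.

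**Figure D3:**
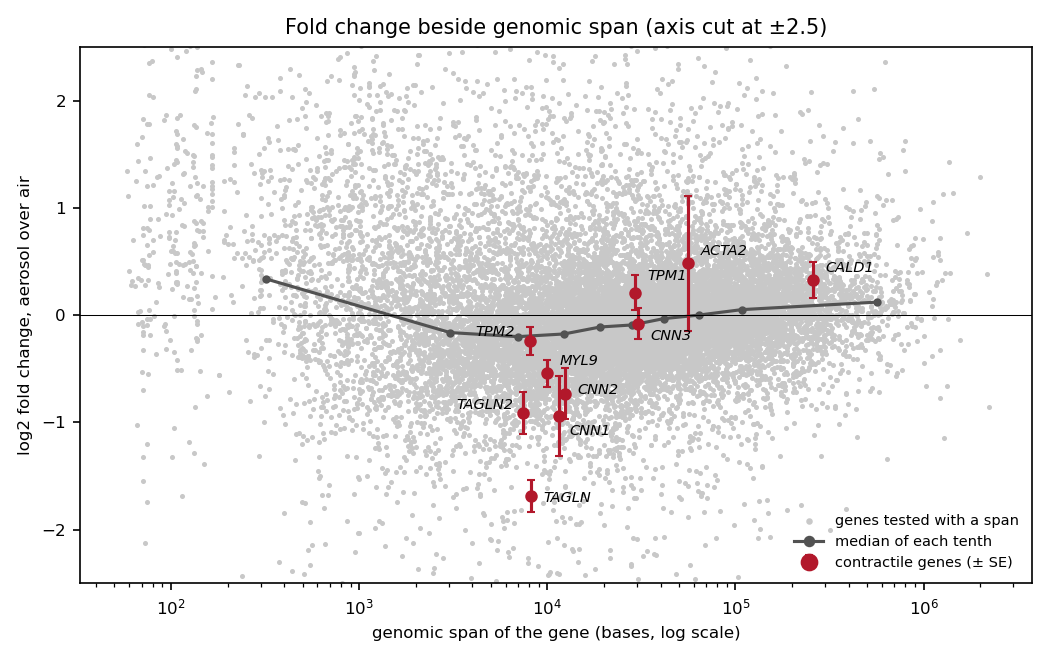
Log2 fold change (aerosol over filtered air, y axis) against genomic span (x axis, log scale) for the 10 genes (red, ± standard error), the 17073 genes tested with a span (grey, 192 of them outside the axis) and the median of each of 10 equal groups by span (line). TAGLN (-1.68) lies farthest below the line, and TPM2 (-0.24) and CNN3 (-0.08) lie on it.

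Reads shared with overlapping genes may raise or lower some values, since no source used here states whether counting took strand into account or how such reads were treated. The noncoding genes LOC100652768 (over 2621 bases of TAGLN), LOC124904437 (1630 bases of TAGLN2) and LOC124901750 (132386 bases of CALD1) had no values under those names. The span of TAGLN overlaps 3129 bases of PCSK7, a proprotein convertase, which was at 18.2 ± 6.60 CPM after aerosol and 25.2 ± 3.31 CPM in filtered air (SD, n = 5 each; log2 fold change -0.46 ± 0.23, edgeR adjusted p = 0.302). ACTA2 overlaps the antisense gene ACTA2-AS1 and the death receptor gene FAS, which was at 3.67 ± 2.58 CPM after aerosol and 2.66 ± 1.18 CPM in filtered air (0.46 ± 0.54, edgeR adjusted p = 0.729). ACTA2-AS1 stood at 1.34 ± 0.603 CPM after aerosol and 0.319 ± 0.202 CPM in filtered air (log2 fold change 2.07 ± 0.67, edgeR adjusted p = 0.121). TPM1-AS was at 17.9 ± 3.30 and 10.8 ± 2.26 CPM (aerosol and filtered air; 0.73 ± 0.20, edgeR adjusted p = 0.0659). CNN3-DT, which overlaps CNN3, and DLGAP4-AS1, which spans all of MYL9, averaged 1.69 and 0.731 CPM after aerosol and 1.56 and 0.694 CPM in filtered air, and neither was called. The files list 14 gene copies named after CNN2, CNN3, TAGLN2 or TPM2, and none exceeded 0.963 CPM in any library.

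The genes whose profile over the 10 libraries was nearest that of TAGLN were KRT34, a hair keratin, OSTM1, a subunit of a lysosomal chloride transporter, and XBP1, which turns on genes of the unfolded protein response. Nearness was the root mean square difference of log2 CPM, each gene centred on its own mean, and came to 0.29, 0.32 and 0.32. They had log2 fold changes of -1.35 ± 0.21, -1.41 ± 0.23 and -1.40 ± 0.15. Nearness by this measure includes the difference between the groups, so a fold change like that of TAGLN follows from the choice. Of the other 9 contractile genes TAGLN2 (0.55, rank 171 of the genes tested), MYL9 (0.58, rank 286) and CNN1 (0.63, rank 606) came nearest and ACTA2 (1.46, rank 14655) was farthest, so many genes outside the contractile set lay nearer.

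The other genes of the contractile programme were read from lists written with earlier results known, against the same test over all genes. SRF, MYH11, DES, ACTG2, LMOD1 and MYOCD each stand in 2 of the 12 lists. Of 12 late smooth muscle genes 10 were tested, and edgeR called none, with a median log2 fold change of 0.10. At an unadjusted p under 0.05, 1 was lower and 1 higher, the same numbers that DESeq2 called. Over all genes 9.48% were lower and 8.78% higher at an unadjusted p under 0.05, 3.36% were called lower and 4.76% higher by DESeq2, and 1.39% were called lower and 1.62% higher by edgeR, which are the shares beside which each list stands. SMTN, which encodes smoothelin, was at 103 ± 24.9 and 145 ± 20.3 CPM (aerosol and filtered air, SD, n = 5 each; -0.50 ± 0.17, edgeR adjusted p = 0.132), and SYNM, an intermediate filament gene, at 46.2 ± 3.89 and 45.1 ± 5.11 CPM (0.03 ± 0.12, edgeR adjusted p = 0.925). The sign of SYNM was below 0 when libraries were scaled by size alone (-0.06). NEXN of the same list had a higher mean after aerosol, at 53.0 ± 29.4 and 23.7 ± 4.14 CPM (aerosol and filtered air; 1.16 ± 0.31, edgeR adjusted p = 0.0634). Every aerosol library lay above every filtered air library for NEXN, which held for 3.52% of all genes tested. MYH11, DES and ACTG2, which define mature smooth muscle, averaged 2.34, 0.379 and 0 CPM after aerosol and 1.69, 0.714 and 0.411 CPM in filtered air.

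Among other actins, tropomyosins and myosin chains 1 of 10 tested fell and none rose (median -0.31; 4 lower and 0 higher at an unadjusted p under 0.05, 2 lower and 0 higher by DESeq2, against 9.48% and 3.36% lower over all genes). MYL12B, a close relative of MYL9 in non-muscle cells, fell to 146 ± 15.2 CPM after aerosol, against 225 ± 36.8 CPM in filtered air (SD, n = 5 each; log2 fold change -0.62 ± 0.12, edgeR adjusted p = 0.0173, lower in 5 of 5 aerosol libraries), and its adjusted p was 0.0537 without filtered air library 3 and 0.0588 without aerosol libraries 4 and 5. Of 18 SRF-regulated genes of actin binding and adhesion 1 fell and none rose (median -0.22; 5 lower and 2 higher at an unadjusted p under 0.05, 3 lower and 1 higher by DESeq2, against 9.48% and 3.36% lower over all genes). The gene that fell was ACTN1, an actin cross-linker, at 466 ± 61.6 and 645 ± 37.1 CPM (aerosol and filtered air; -0.47 ± 0.10, edgeR adjusted p = 0.0264). The call of ACTN1 was lost without aerosol library 4 or any one of filtered air libraries 1 to 4, with adjusted p of up to 0.0786.

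**Figure D4:**
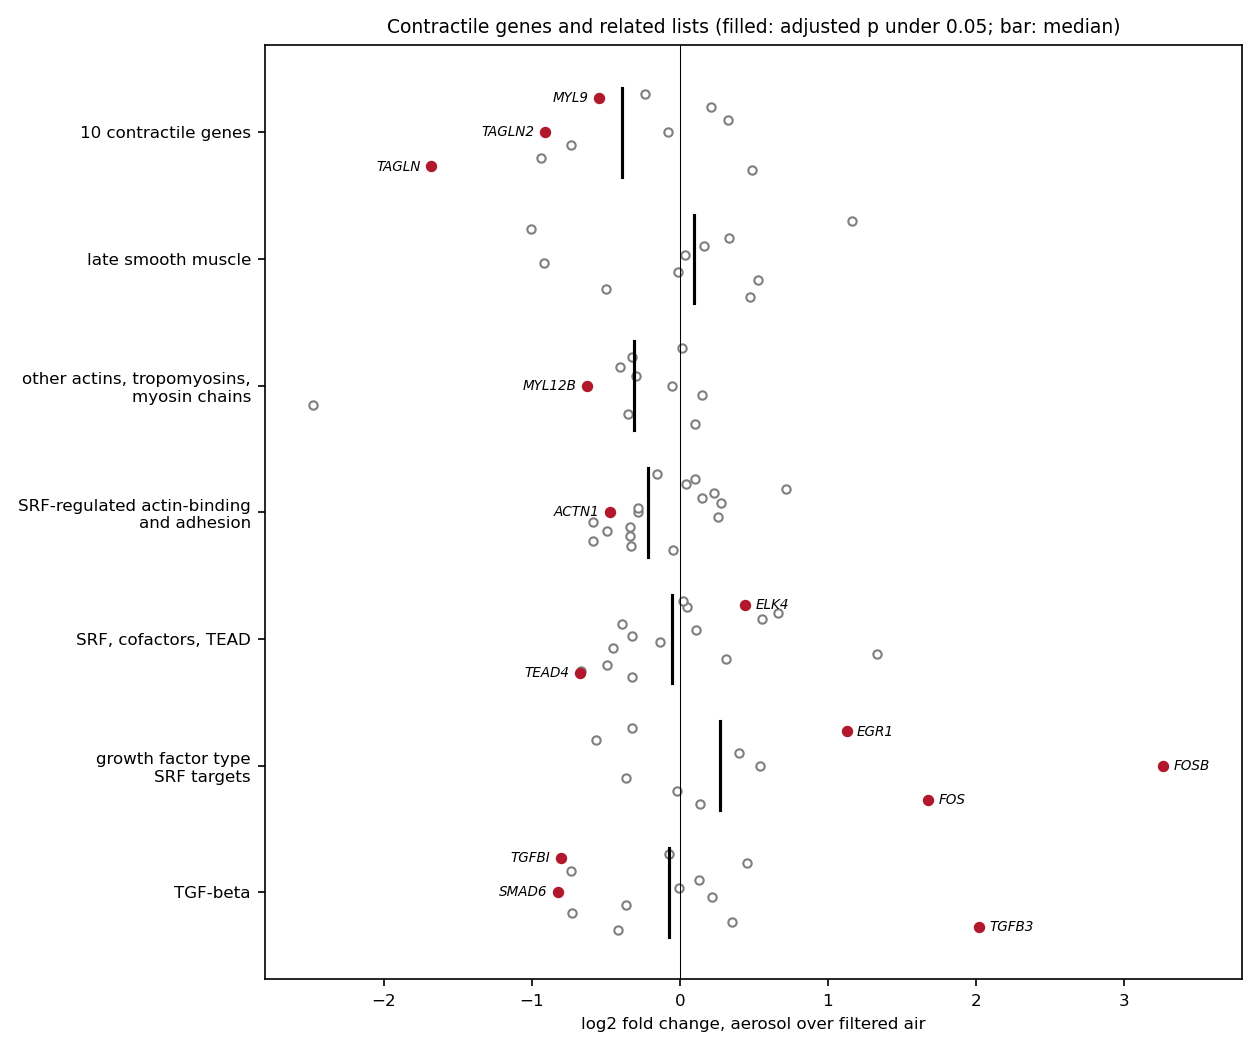
Log2 fold change (aerosol over filtered air, x axis) of every tested gene of the 10 contractile genes and of 6 related lists. Filled points have an edgeR adjusted p under 0.05 over all genes, open points do not, and the bar is the list's median, at -0.39 for the contractile genes and 0.27 for growth factor type SRF targets.

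Of 16 genes of SRF, its cofactors and TEAD factors 1 fell, 1 rose and 14 were not called. At an unadjusted p under 0.05, 2 were lower and 3 higher, against 9.48% and 8.78% of all genes. DESeq2 called 1 lower and 2 higher, against 3.36% and 4.76% of all genes. TEAD4, a factor that binds M-CAT words, fell (33.1 ± 4.52 CPM after aerosol and 53.0 ± 4.01 CPM in filtered air; -0.68 ± 0.13, edgeR adjusted p = 0.0159) and ELK4, a growth factor-linked SRF partner, rose (227 ± 29.5 and 167 ± 7.33 CPM, aerosol and filtered air; 0.44 ± 0.10, edgeR adjusted p = 0.0318). TEAD4 was past the threshold when any single library was left out except filtered air library 2 (adjusted p = 0.0532). The mean of TEAD1 was higher after aerosol, at 227 ± 148.5 and 90.3 ± 17.9 CPM (aerosol and filtered air; 1.33 ± 0.41, edgeR adjusted p = 0.117). Its groups overlapped, and it was not called. TEAD2 (-0.45 ± 0.22) and TEAD3 (-0.13 ± 0.23) were not called either. ELK4 lost its call without aerosol library 3, 4 or 5 or any one of filtered air libraries 1 to 4 (adjusted p of up to 0.0980). SRF was at 33.0 ± 8.41 and 41.2 ± 5.46 CPM (aerosol and filtered air; -0.32 ± 0.18, edgeR adjusted p = 0.375). Of its cofactors of the myocardin family, MRTFA had a lower mean after aerosol (32.9 ± 7.78 and 46.2 ± 4.71 CPM; -0.49 ± 0.17, edgeR adjusted p = 0.135). MRTFB had a higher mean (134 ± 25.2 and 108 ± 11.8 CPM; 0.31 ± 0.14, edgeR adjusted p = 0.252), and neither was called.

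Growth factor type SRF targets, many of which respond to SRF through ternary complex factors, gave 3 rises and no fall among 10 tested (median 0.27; 5 higher and 0 lower at an unadjusted p under 0.05 and by DESeq2, against 8.78% and 4.76% higher over all genes). FOSB, a subunit of the AP-1 transcription factor, was at 7.44 ± 2.17 and 0.771 ± 0.372 CPM (aerosol and filtered air, SD, n = 5 each; log2 fold change 3.27 ± 0.38, edgeR adjusted p = 0.00187). FOS, another AP-1 subunit, was at 7.84 ± 2.43 and 2.45 ± 0.669 CPM (1.68 ± 0.29, edgeR adjusted p = 0.0123). Both were higher in 5 of 5 aerosol libraries and stayed called whichever single library was left out. EGR1, an early response transcription factor, stood at 101 ± 43.5 and 46.1 ± 9.02 CPM (aerosol and filtered air, SD, n = 5 each; 1.13 ± 0.25, edgeR adjusted p = 0.0311). Its call was lost without aerosol library 4 or any one of the filtered air libraries (adjusted p of up to 0.0903), and without aerosol libraries 4 and 5 its log2 fold change was 0.66.

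TGF-beta induces many smooth muscle genes in fibroblasts. Of 13 ligands, receptors and targets tested 2 fell and 1 rose (median -0.08). The list summed to 864 to 1061 CPM in aerosol and 1057 to 1204 CPM in filtered air libraries, and TGFBI had the largest difference in mean CPM among its genes. TGFBI, a secreted matrix protein named for its induction by TGF-beta, was at 166 ± 19.9 and 290 ± 25.7 CPM (aerosol and filtered air, SD, n = 5 each; -0.80 ± 0.10, edgeR adjusted p = 0.00266). It was lower in 5 of 5 aerosol libraries and stayed called whichever single library was left out. SMAD6, an inhibitory SMAD, fell (11.5 ± 2.20 and 20.4 ± 3.40 CPM, aerosol and filtered air; -0.82 ± 0.19, edgeR adjusted p = 0.0358) and the ligand TGFB3 rose (4.22 ± 1.35 and 1.03 ± 0.645 CPM, aerosol and filtered air; 2.03 ± 0.49, edgeR adjusted p = 0.0445). SMAD6 kept its call without aerosol library 1 or 2 or filtered air library 5, and TGFB3 without aerosol library 2, with adjusted p of up to 0.105 without the other single libraries. Of 12 fibroblast markers 7 had log2 fold changes below 0 (median -0.20), and 1 was called. At an unadjusted p under 0.05, 4 were lower and 2 higher, against 9.48% and 8.78% of all genes. DESeq2 called 0 lower and 1 higher, against 3.36% and 4.76% of all genes. THY1, a surface marker, was at 127 ± 19.4 and 173 ± 40.0 CPM (aerosol and filtered air; -0.45 ± 0.17, edgeR adjusted p = 0.170) and POSTN, a matrix gene, at 4.01 ± 1.83 and 7.93 ± 1.99 CPM (-0.98 ± 0.38, edgeR adjusted p = 0.189). DDR2 had a higher mean after aerosol, at 528 ± 47.7 and 457 ± 19.7 CPM (aerosol and filtered air; 0.21 ± 0.08, edgeR adjusted p = 0.194). COL1A1 was at 1897 ± 214 and 2208 ± 196 CPM (aerosol and filtered air; -0.219 ± 0.095, edgeR adjusted p = 0.245). COL1A2 was at 318 ± 42.8 and 377 ± 39.1 CPM (-0.245 ± 0.109, edgeR adjusted p = 0.255). THY1, POSTN, DDR2, COL1A1 and COL1A2 were chosen after their values were seen. FAP, a protease of activated fibroblasts, was the 1 called and rose (49.2 ± 9.48 and 31.8 ± 2.22 CPM; 0.63 ± 0.14, edgeR adjusted p = 0.0342), a call that held only without aerosol library 1 or 2 among single libraries (adjusted p of up to 0.101).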

How the data were processed

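The authors deposited 1 whole-number count per gene and mRNA library, without normalization. HISAT, DESeq 1.8.3, featureCounts 1.5.0-p3 and hg38 are named, without roles or settings, in the submitters' processing notes. No source used here states strand use, annotation release or how reads shared by gene copies were treated. Per the labels, RNA extraction used TRIzol and library preparation a SMARTER mRNA kit. The 10 miRNA libraries were not analysed here, and 0 columns were left out.

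Groups and replicate numbers came from the titles, which state no batch. Counts were tested with edgeR 4.0.16 (R 4.3.3) on 20166 genes that passed filterByExpr, with TMM scaling and a robust quasi-likelihood F test on the group alone, adjusted by Benjamini-Hochberg. Standard errors were derived from each fold change with its F value. The script was tested on simulated data. Between any 2 libraries chi-square divided by its degrees of freedom was 67.3 or more, so no library was counted as a repeat of another. Nothing says that replicates were grown on separate days, so p-values measure the spread between these samples, which may be technical.

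The genes and the lists were chosen with earlier results of these data known. Named were all 10 genes, up to 4 past the threshold per list by p (or the 2 with the highest mean), the 3 nearest TAGLN in log2 CPM (prior count 2) and overlapping genes. One list and a gene of another are not reported here. MALAT1, MYH11, DES, ACTG2, SRF, MRTFA, MRTFB, THY1, POSTN, COL1A1, COL1A2, DDR2, NEXN, TEAD1, TEAD2 and TEAD3 were added after their values were seen. Gene spans and promoters came from RefSeq, GRCh38.p14, with spans for 84.7% of the genes tested. Alternatives were other scalings, DESeq2 1.42.0, limma-voom 3.58.1, other filters, the replicate number as a block and the removal of libraries.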

Additional observations from a re-analysis of the deposited data

Results flagged for a closer look

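In CNN3, filtered air library 5 stood at 268 CPM, with the other 4 filtered air libraries between 209 and 220 CPM. In CALD1 the same library stood at 283 CPM, with the others between 212 and 222 CPM. In both genes a single library lay far above the rest of its group, so the filtered air mean rests partly on it. Aerosol library 5 held 44760 CPM of MALAT1, a nuclear noncoding RNA, with the other 4 aerosol libraries between 7486 and 16390 CPM. Those were 3 of 78 groups of 5 values examined, of which chance would flag about 1 in 20.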

How the results depend on the processing

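The log2 fold change of TAGLN was -1.78 to -1.60 over the 19 alternatives, a description, since it was chosen on these libraries. Of the 10 genes, 3 were called lower with all libraries, 2 under upper-quartile scaling, and between 1 and 3 when 1 library was left out. Signs turned for CNN3 under upper-quartile scaling (0.01) and, without aerosol libraries 4 and 5, for CALD1 (-0.018) and TPM1 (-0.064). Over all genes, 608 were called, 327 higher and 281 lower. Leaving out 1 library gave 183 to 757 calls, 110 to 383 higher and 73 to 374 lower. Fewer samples enter those fits. DESeq2 gave 1957 calls, 1148 higher and 809 lower. Upper-quartile scaling gave 482 higher and 171 lower, so that 73.8% of calls were higher, against 53.8% with TMM, 43.4% with library size alone, 64.1% (564 higher) with at least 10 counts in every library and 45.2% (188 higher, 228 lower) without aerosol libraries 4 and 5. The cause of those shifts was not tested. With the replicate block 205 genes were called higher and 245 lower, and MYL9 (-0.55) was not called. The numbers were not taken as pairs, because no label says that they mark a shared day or culture. Same-numbered libraries of the 2 groups correlated by 0.00781 to 0.0529 in their deviations, and 3 of 5 aerosol libraries correlated best with their own number. Among the other named genes, none of them called, signs turned for SYNM by library size (-0.059), KDR (-0.77) and CD14 (-0.999) in limma-voom, KDR (-0.23) and CD14 (-0.58) with the replicate block, and RGS5 (0.016) without aerosol libraries 4 and 5. Without single libraries they reached -0.02 to 0.072 for SYNM, -0.24 to 0.025 for RGS5, -0.37 to 0.50 for KDR, -0.83 to 0.53 for TEK, -0.54 to 0.028 for EPCAM and -0.24 to 0.51 for CD14. TTN was past the threshold in DESeq2 (0.63) and without aerosol libraries 4 and 5 (0.86), PLN in DESeq2 (1.91). Calls that also ended were TGFB3 and FAP by library size, ELK4 with no filter on low counts, EGR1, SMAD6 and TGFB3 with the replicate block, and MYL12B, ELK4, EGR1, SMAD6, TGFB3 and FAP without aerosol libraries 4 and 5. For ACTA2 the depth limits what can be seen, with 30 to 232 counts per library.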
